A study of Homo sapiens with 10 samples.

Results

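Positions 2300 to 2699 of 28S rRNA were examined in RibOxi-seq libraries of PA1 cells, a human ovarian teratocarcinoma line. These 400 positions were chosen by their place in the rRNA alone, out of 6939 positions of 18S and 28S, and were not chosen by any measured value. The study's supplementary list of annotated sites places 7 of its 106 known 2′-O-methylation sites here, so 393 positions were not known sites. RibOxi-seq cuts RNA with Benzonase, removes the last nucleotide by oxidation and β-elimination, oxidizes again, and ligates a linker to the 3′-ends that survive, which are those with a 2′-O-methyl group. Control libraries were made from non-oxidized RNA of the same cells. The NextSeq experiment held 3 control and 3 oxidized libraries, with replicates 1 and 2 of each group from passage 6 and replicate 3 from passage 4. The MiSeq experiment, made from cells at passage 7, held 2 control and 2 oxidized libraries. MiSeq was a pilot from a smaller amount of RNA, so RNA amount, sequencer and passage changed together between the experiments and cannot be told apart, and all libraries came from 1 cell line with no genetic change or drug. Each value is a count of sense alignments that end, at their 3′ side, on a given base, and 28S positions are numbered from 0.

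A 2′-O-methyl group on the ribose blocks cleavage of the bond on its 3′ side and protects the end from periodate. In human rRNA most of these groups are placed by box C/D snoRNPs, in which the snoRNA pairs with the rRNA and fibrillarin methylates the base that pairs with the fifth snoRNA nucleotide before box D or D′. A methylated base is therefore read in 2 ways by this assay, as a peak of 3′-ends in oxidized libraries and as a lack of 3′-ends in control libraries.

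All 7 known sites lay within a span of 74 nt, C2350, A2362, C2364, A2400, U2414, C2421 and G2423, and the 276 positions after G2423 held none. The stretch that carries them is shown with the 7 methylated bases in capitals, because the spacing between them decides how their signals can be separated. It runs from position 2343 to 2430 and lies on the plus strand of an unplaced contig of hg19 (GRCh37), bases 115691 to 115778, within the 28S rRNA.
28S 2343 to 2430: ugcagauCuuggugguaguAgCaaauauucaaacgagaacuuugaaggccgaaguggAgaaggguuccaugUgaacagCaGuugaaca
The gaps between successive sites were 12, 2, 36, 14, 7 and 2 nt. The whole range covered bases 115648 to 116047 of that contig, which holds 2 identical copies of it, and reads from the copies cannot be separated. GC content was 63.75% in the range and 69.4% over 28S. Known sites made up 1.75 of each 100 positions here and 1.53 of each 100 over both rRNAs.

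Guide elements for 6 of the 7 sites were found in GRCh37 by pairing, and are shown because their overlaps group the sites. In each, the first capital is the snoRNA base that pairs with the methylated base. The last 4 capitals are the bases where the guide rule places the box, with the paired base as base 5 before them. That spacing was set in advance and is not a result, and the 4 bases read CUGA, UUGA or AUGA.
SNORD24, for C2350: accaccaaGaucgCUGA
SNORD24, for C2364: gaauauuuGcuauCUGA
SNORD76, for A2362: uauuugcUacucUUGA
SNORD68, for A2400: gaacccuuuUccauCUGA
SNORD5, for C2421: uguucaacuGcugaAUGA
SNORD6, for G2423: auguucaaCugcuCUGA
SNORD24 lies within RPL7A on chromosome 9 (plus strand) and carries both elements, with 12 paired bases for C2350 (136216305 to 136216316) and 13 for C2364 (136216267 to 136216279), of which 1 is a G:U pair. The SNORD76 element was matched inside GAS5 on chromosome 1 (minus strand, 173835824 to 173835834), with 11 paired bases. SNORD68, in RPL13 on chromosome 16 (plus strand, 89627890 to 89627903), paired over 14 bases with 2 G:U pairs. SNORD5 (93466434 to 93466446) and SNORD6 (93464706 to 93464718), both in TAF1D on the minus strand of chromosome 11, paired over 13 bases each. The rRNA stretches of SNORD24 (2360 to 2372) and SNORD76 (2359 to 2369) overlapped, as did those of SNORD5 (2418 to 2430) and SNORD6 (2419 to 2431). U2414 is assigned to SNORD143 and SNORD144.

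Total counts over both rRNAs were 72458614 to 80964624 in NextSeq controls, 12293410 to 13694386 in NextSeq oxidized libraries, 30392418 to 44061905 in MiSeq controls and 1353768 to 1568883 in MiSeq oxidized libraries. Low counts gathered at steps of 50, so the limit for a count of 0 was set at 3 such steps, 150 counts. It allowed up to 12.2 CPM (count over library total, times 1000000) in the shallowest NextSeq oxidized library and up to 110.8 CPM in the shallowest MiSeq one, covering counting error only. NextSeq control replicate 3, the only control from passage 4, stood apart. Over the 393 unannotated positions its Spearman correlation was 0.191 and 0.187 with control replicates 1 and 2, which had 0.996 with each other, and 0.470 and 0.449 with the MiSeq controls. Ends on A made up 24.2% of its counts at those positions, against 8.30% and 8.23% in replicates 1 and 2. Oxidized replicate 3, of the same passage, did not stand apart, since all pairs of oxidized NextSeq libraries had 0.667 to 0.692. Results that rest on control replicate 3 are given with and without it, and the part of passage was not tested. NextSeq oxidized replicates 2 and 3, and the 2 MiSeq oxidized libraries, agreed within sampling noise if counts were taken in steps of 50 (chi-square over degrees of freedom 1.03 for both pairs), whereas the counts as deposited differed beyond it (47.4 and 46.2). The NextSeq pair carries different passages, and each library was kept as a separate sample. The labels name no separate cultures beyond the passages, so p-values measure only the spread between these libraries.

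The oxidized NextSeq libraries were filled by the known sites. In replicates 1 to 3, the 7 sites held 97.6%, 97.1% and 97.3% of all counts in the range, against 0.647%, 0.711% and 0.311% in the control libraries. The MiSeq oxidized libraries held 59.5% and 57.3% at the same sites, and the MiSeq controls 0.141% and 0.144%. Oxidized and control libraries did not overlap in either experiment. An exact two-sided permutation test gave p = 0.1 for NextSeq, the smallest that 3 against 3 libraries allow, and p = 0.333 for MiSeq, the smallest that 2 against 2 allow (adjusted p = 0.291 and 0.356 over 16 comparisons). With U2414 taken out of both sums, the oxidized shares were 73.0%, 73.9% and 75.0% in NextSeq and 55.6% and 53.1% in MiSeq. Outside the known sites, the oxidized MiSeq libraries kept 25.8% and 26.9% of the range's counts in the positions after 2430, where the oxidized NextSeq libraries kept 0.760%, 0.927% and 0.885%.

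**Figure D1:**
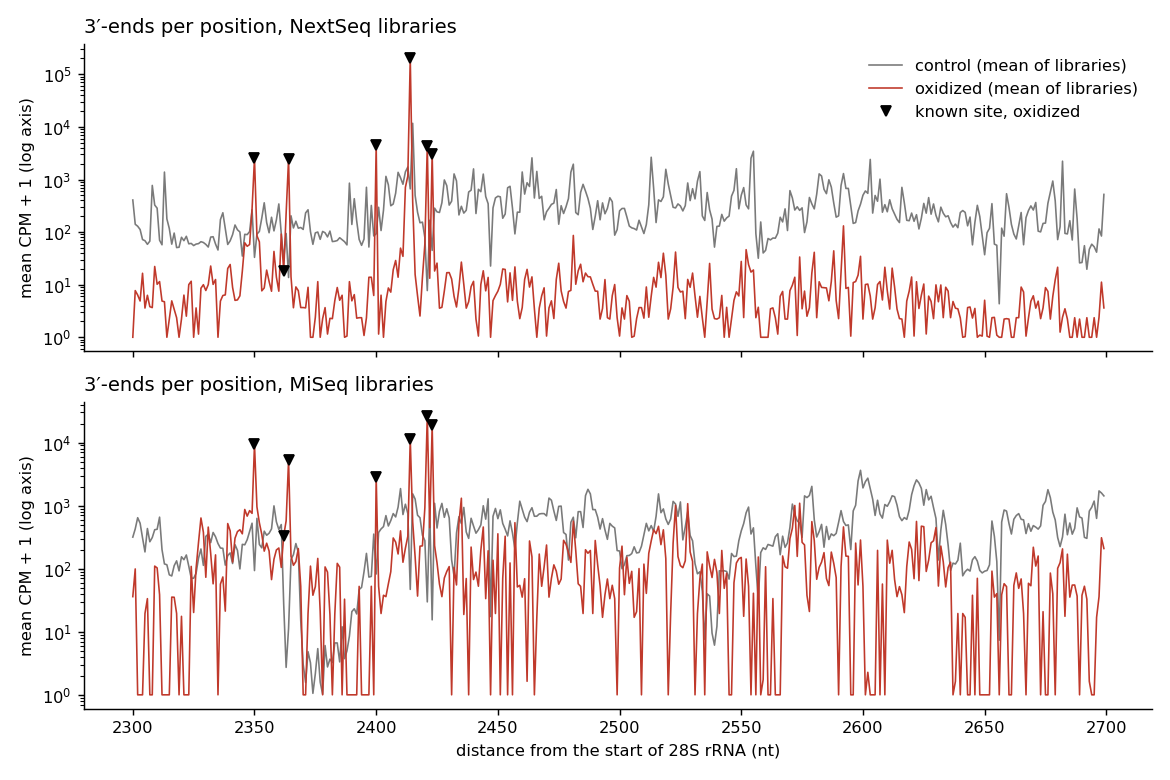
Mean CPM plus 1 (log axis) at each position against the distance from the start of 28S rRNA (nt), for NextSeq (top) and MiSeq (bottom). Grey lines are control libraries, red lines are oxidized libraries and triangles mark the 7 known sites. In NextSeq the oxidized line stays under the control line at most positions beyond 2430, while in MiSeq the 2 lines lie closer, and A2362 is the known site without a tall peak.

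The share of each library that fell in the whole range lay on opposite sides of the controls in the 2 experiments. The range took up 26.9%, 20.6% and 20.9% of all counts in the NextSeq oxidized libraries against 16.6%, 16.7% and 12.0% in the controls, and 13.0% and 12.6% in the MiSeq oxidized libraries against 21.1% and 21.0% in the controls. The groups did not overlap in either experiment (exact permutation p = 0.1 and 0.333, the smallest these designs allow). U2414 alone made up 24.6%, 18.3% and 18.6% of the 3 oxidized NextSeq libraries.

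The test of oxidized against control libraries called 6 positions of the range as sites in NextSeq, all of them known sites, and 5 in MiSeq, of which 4 were known. A position was called where its log2 fold change exceeded 7 with an adjusted p under 0.05 in edgeR's quasi-likelihood test, using TMM scaling and p-values adjusted by Benjamini-Hochberg across both rRNAs. In NextSeq 6 of 7 known sites and 0 of 393 other positions passed, and 1.53% of all 6718 positions tested were called. In MiSeq 4 of 7 known sites and 1 of 393 other positions passed, with 2.36% of 6661 called. Among the known sites outside the range, 91 of 99 were called in NextSeq and 82 of 99 in MiSeq. The median log2 fold change was 10.63 over the 7 sites and 11.14 over the other 99 in NextSeq, and 8.20 and 10.60 in MiSeq. Scaling by library totals alone left 3 sites called in NextSeq, C2364, U2414 and C2421. With oxidized replicates 2 and 3 averaged into 1, 4 sites were called, since U2414 (adjusted p = 0.0508) and G2423 (adjusted p = 0.0622) missed the threshold.

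**Figure D2:**
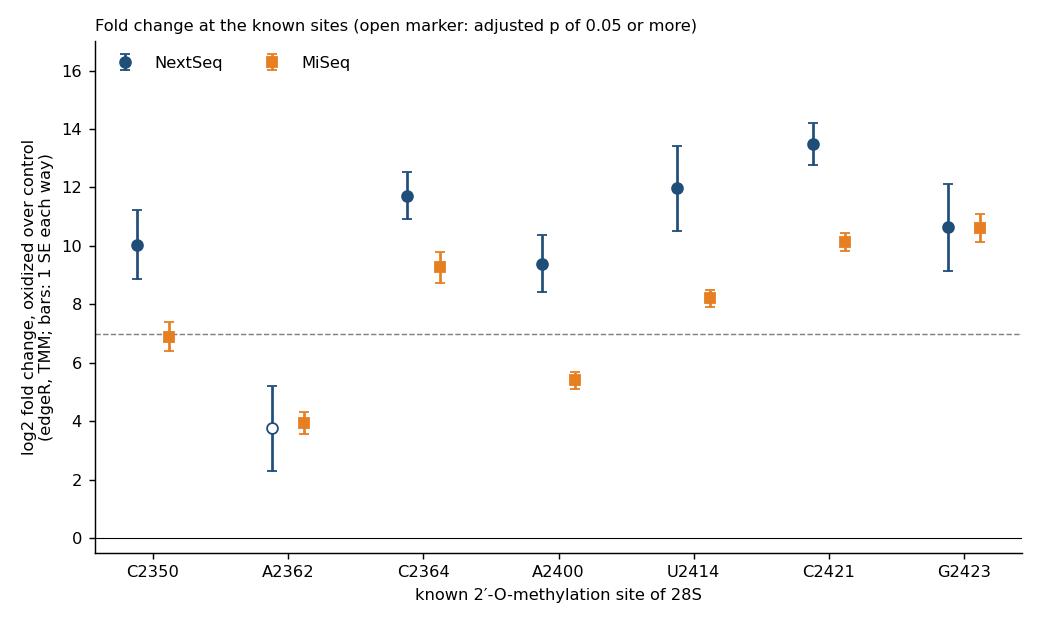
Log2 fold change of oxidized over control (vertical axis) at the 7 known sites for NextSeq (blue circles) and MiSeq (orange squares), with bars of 1 standard error each way. The dashed line is the threshold of 7 and an open marker has an adjusted p of 0.05 or more. A2362 is below the line in both experiments, at 3.76 in NextSeq and 3.93 in MiSeq.

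U2414 had the highest oxidized signal of the range in NextSeq and rank 2 among all 6939 positions. Its counts were 3251701, 2245942 and 2550388 in the oxidized libraries, and 65515, 80228 and 6707 in the controls. The groups did not overlap, and the log2 fold change was 11.98 (SE 1.45, adjusted p = 0.00937, edgeR). In MiSeq the counts were 17737 and 15499 after oxidation and 2150 and 1309 without, with a log2 fold change of 8.20 (SE 0.30, adjusted p = 0.00607, edgeR). There it made up 1.13% and 1.14% of the oxidized libraries, and had rank 17 among all positions. The 2 experiments did not overlap in that share (20.5% against 1.14% in the mean, exact permutation p = 0.2, the smallest that 3 against 2 allow).

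The base that follows, G2415, is not a known site and is one of 2 positions taken as points of comparison because of their weight in control libraries. It held 1261027 and 1421576 counts in NextSeq control replicates 1 and 2, more than any other position of 18S or 28S there, but only 16183 in replicate 3. In the MiSeq controls it held 71910 and 43831. After oxidation it held between 4574 and 5361 counts in NextSeq, and 729 and 860 in MiSeq. Relative to each library's total, the oxidized NextSeq values (362 to 405 CPM) lay inside the span of the controls (214 to 17558 CPM), because of replicate 3. The NextSeq log2 fold change was -1.28 (SE 1.36, edgeR), and -1.88 without control replicate 3. MiSeq gave -1.23 (SE 0.30, edgeR), and -1.06 and -1.38 without control replicate 1 or 2. The choice of G2415 by its control counts enters these folds, so they are given as a description with no test.

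By the design of the assay, a fragment that ends at G2415 would lose that base by β-elimination and then end on U2414. Whether the U2414 signal came from such fragments was not tested. Control counts 1 nt downstream of the known sites were set beside the oxidized counts at the sites. Over the 7 sites, the Spearman correlation between oxidized CPM at the site and control CPM at the next base was 0.929 with NextSeq control replicates 1 and 2 but -0.429 with replicate 3, and 0.821 with each MiSeq control. Over all 106 known sites the values were 0.785 and 0.791, 0.516, and 0.540 and 0.524. The points share libraries and sequence, and the correlations are given as descriptions. The largest and smallest oxidized NextSeq signals of the range stood next to the largest and smallest control signals at the next base in replicates 1 and 2, G2415 for U2414 and G2363 (2.76 and 6.21 CPM) for A2362.

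C2421 and G2423, guided by SNORD5 and SNORD6 and 2 nt apart, were both strong. C2421 held 63315, 49902 and 60756 counts in the oxidized NextSeq libraries and 352, 307 and 869 in the controls. Its log2 fold change of 13.50 (SE 0.71, adjusted p = 4.00e-04, edgeR) was the largest of the range and had rank 12 among the 106 known sites. In MiSeq it held 43464 and 35225 after oxidation and 1070 and 1009 without, with a log2 fold change of 10.13 (SE 0.31, adjusted p = 0.00555, edgeR), and it was the highest oxidized position of the range. G2423 held 45630, 37536 and 38537 counts in oxidized NextSeq libraries. Its controls held 263, 762 and 8952, so that replicate 3 alone was well above the others. The log2 fold change was 10.63 (SE 1.50, adjusted p = 0.0201, edgeR) and rose to 12.54 without control replicate 3. In MiSeq the counts were 31780 and 23275 against 463 and 558, a log2 fold change of 10.61 (SE 0.47, adjusted p = 0.00693, edgeR). The ratio of C2421 to G2423 counts was 1.33 to 1.58 in the 3 oxidized NextSeq libraries and 1.37 to 1.51 in the 2 MiSeq ones, so the experiments overlapped. A2422, the base between them, held only 0.278% (SD 0.020, n = 3) of the C2421 count in oxidized NextSeq libraries and 1.68% (SD 0.89, n = 2) in MiSeq ones.

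C2350 and C2364 are both guided by SNORD24. C2350 held 31113, 32800 and 35456 counts in oxidized NextSeq libraries against 2922, 3753 and 714 in controls (log2 fold change 10.04, SE 1.18, adjusted p = 0.00818, edgeR). In MiSeq it held 14213 and 13057 against 5144 and 2065, and its log2 fold change of 6.90 (SE 0.50, adjusted p = 0.00693, edgeR) was just below the threshold of 7, with a span of 6.51 to 7.43 when each library was left out. C2364 held 27409, 33240 and 35608 counts in oxidized NextSeq libraries against 364, 922 and 1634, with a log2 fold change of 11.72 (SE 0.81, adjusted p = 9.25e-04, edgeR). In MiSeq it held 8543 and 6785 against 306 and 416 (9.26, SE 0.52, adjusted p = 0.00693, edgeR). The groups did not overlap at either site. C2350 had 0.987 to 1.14 times the count of C2364 in oxidized NextSeq libraries and 1.66 to 1.92 times in oxidized MiSeq libraries, with no overlap between the experiments.

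A2362, the SNORD76 site 2 nt before C2364, was the exception among the known sites of the range. The study's own list marks A2362 as not detected, and its NextSeq log2 fold change had rank 102 among the 106 known sites. The site held 58, 304 and 311 counts in the oxidized NextSeq libraries and 260, 204 and 6113 in the controls. The groups therefore overlapped, and control replicate 3 was the highest of all. The log2 fold change of 3.76 (SE 1.44) was not significant (adjusted p = 0.103, edgeR), and without control replicate 3 it was 6.12 with an adjusted p of 0.0252. Scaling by library totals alone turned the sign, to -0.75 (adjusted p = 0.652). In MiSeq the site held 566 and 414 counts after oxidation against 906 and 982 in much deeper controls, a log2 fold change of 3.93 (SE 0.38, adjusted p = 0.00693, edgeR) without overlap in CPM. Without control replicate 1 or 2 it was 3.69 and 4.20, with adjusted p of 0.147 and 0.140. Its oxidized count was 0.00212 to 0.00915 of that of C2364 in NextSeq and 0.0610 to 0.0663 of it in MiSeq. By the design of the assay, a fragment must end at G2363 to reveal A2362 by loss of 1 base, and G2363 lies between the 2 sites. Whether this bears on the low A2362 signal was not tested.

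G2363 was the only position outside the known list to be called, and only in MiSeq. It held 1019 and 670 counts in the MiSeq oxidized libraries against 4 and 102 in the controls (log2 fold change 8.70, SE 2.07, adjusted p = 0.0276, edgeR). Both control counts lie under 150, and the value ranged from 7.74 to 12.68 when each library was left out. In NextSeq the counts were 1994, 3115 and 3722 after oxidation and 200, 503 and 20438 in the controls, with a log2 fold change of 5.84 (SE 1.71, adjusted p = 0.0519, edgeR). Without control replicate 3 it was 9.28 (adjusted p = 0.00769). G2363 is the base before C2364, and its oxidized count was 9.03% (SD 1.62, n = 3) of the C2364 count in NextSeq and 10.9% (SD 1.45, n = 2) in MiSeq. At the base before C2350, U2349 held 10.9% (SD 1.02) in NextSeq and 8.09% (SD 1.83) in MiSeq. In MiSeq U2349 did not stand out, since U2351 after C2350 held 10.2% (SD 0.60), whereas A2365 after C2364 held 2.99% (SD 0.06). The MiSeq log2 fold change of U2349 was 0.77 (adjusted p = 0.0720, edgeR). The bases before U2414 (G2413, 0.565%), A2400 (G2399, 0.115%), C2421 (G2420, 1.33%) and G2423 (A2422, 0.396%) held smaller shares in NextSeq. U2361, before A2362, held more than that low site (721%, SD 451).

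A2400, the SNORD68 site, stood alone in the middle of the stretch. Its counts were 60969, 55338 and 59849 in oxidized NextSeq libraries and 8031, 9859 and 3216 in controls, a log2 fold change of 9.39 (SE 0.97, adjusted p = 0.00422, edgeR). In MiSeq it held 4778 and 3586 against 3014 and 2863, and the log2 fold change of 5.40 (SE 0.30, adjusted p = 0.00693, edgeR) was significant but below the threshold of 7. The groups did not overlap in CPM in either experiment.

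**Figure D3:**
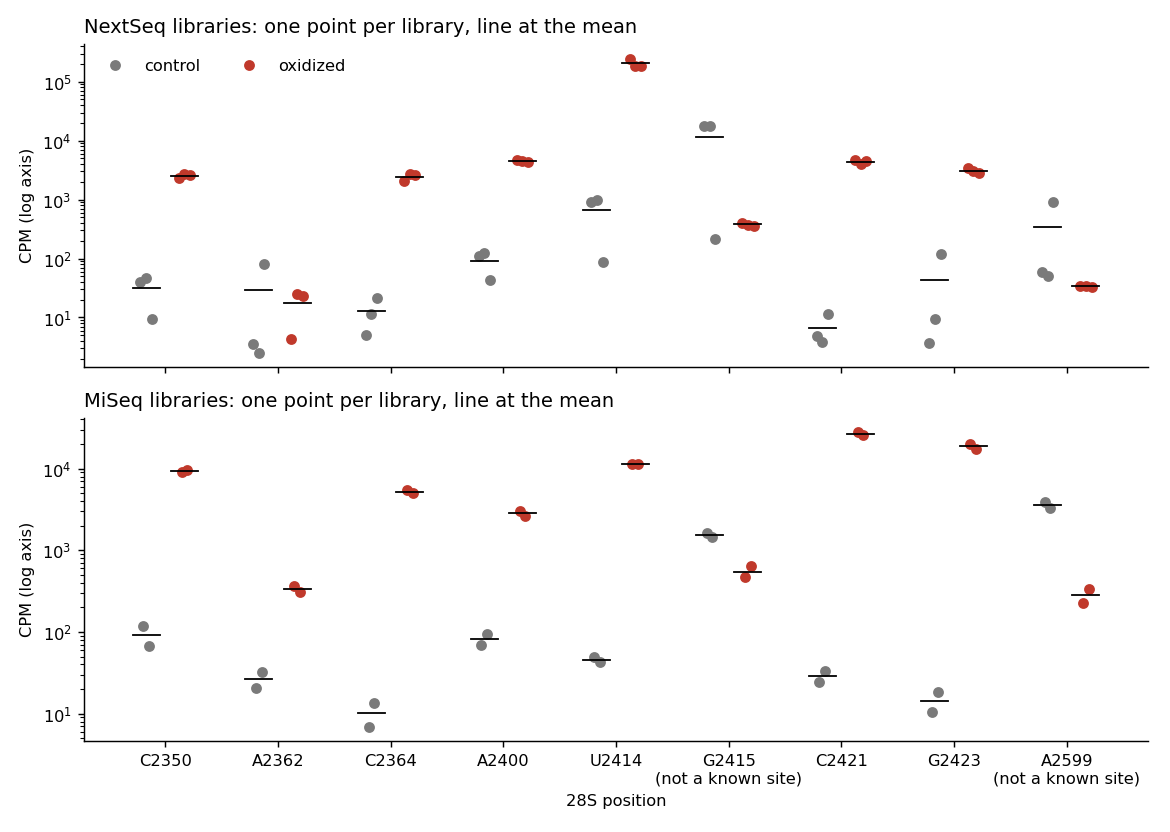
CPM (log axis) in every library at the 7 known sites and at G2415 and A2599, for NextSeq (top) and MiSeq (bottom), with 1 point per library and a line at the mean. Grey points are control and red points oxidized libraries. Groups are separated at 6 known sites in NextSeq and at 7 in MiSeq. With the controls higher, they are also separated at A2599 in both experiments and at G2415 in MiSeq. Separation alone therefore does not mark a known site. The isolated control point of A2362, G2423, G2415 and A2599 in NextSeq is replicate 3.

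The order of the sites by oxidized level was not the same in the experiments. The study states that its method cannot at present compare the extent of methylation between sites, because linker ligation is biased by sequence. This order, and the ratios between sites given above, therefore describe counts and not degrees of methylation. In NextSeq, U2414 (mean 204857 CPM) was followed by A2400 (4493) and C2421 (4426), whose libraries overlapped, then by G2423 (3105), by C2350 (2536) and C2364 (2458), which overlapped, and by A2362 (17.3). In MiSeq the order was C2421 (26862 CPM), G2423 (18725), U2414 (11377), C2350 (9352), C2364 (5229), A2400 (2847) and A2362 (333), and no 2 neighbours in this order overlapped. The test of the difference between the experiments' folds, an interaction term over all 10 libraries in edgeR, passed at 1 of the 7 sites and at 35 of 400 positions of the range, with 8.2% of all positions passing. That site was C2421, whose log2 fold change was 2.96 lower in MiSeq than in NextSeq (interaction -2.96, SE 0.60, adjusted p = 0.0227). Without control replicate 3 of NextSeq, 4 sites passed, A2400 (-3.03), C2421 (-3.02), U2414 (-2.71) and C2350 (-2.12), and with scaling by library totals alone 0 did (adjusted p = 0.834 for C2421).

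Control libraries had fewer ends at the known sites than around them. This control gap was measured by dividing a site's count by the median count of unannotated positions up to 10 nt away on each side. All 7 sites were below 1 in NextSeq control replicate 3 and in both MiSeq controls, and 6 of 7 in NextSeq replicates 1 and 2. Between 47.3% and 51.1% of unannotated positions were below 1. C2421 had a deep gap in all 5 libraries, at 0.0154, 0.0117 and 0.0395 in NextSeq and 0.0359 and 0.0415 in MiSeq. G2423 was at 0.0115 and 0.0290 in NextSeq replicates 1 and 2 and at 0.0163 and 0.0242 in MiSeq, but at 0.407 in NextSeq replicate 3.

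A2362, which had no peak in NextSeq, had a gap. Its values were 0.0332 and 0.0255 in NextSeq replicates 1 and 2, 0.356 in replicate 3, and 0.0845 and 0.145 in MiSeq. Only 1.02% to 5.09% of unannotated positions were as low in the same library. G2363 beside it was at 0.0249 and 0.0552 in NextSeq replicates 1 and 2, at 1.45 in replicate 3, and at 3.79e-04 and 0.0142 in MiSeq, so positions 2362 to 2364 were low together in 4 of the 5 controls. C2364 ranged from 0.0430 to 0.119 and A2400 from 0.222 to 0.346. In NextSeq replicates 1 and 2, 19.8% and 23.9% of unannotated positions were as low as A2400, against 4.33% to 5.09% in the other controls. A2599, which is not a known site, was at 0.132 and 0.116 in replicates 1 and 2 and above 1 in the other controls.

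C2350 and U2414 differed by library. C2350 was at 0.682 and 0.732 in NextSeq replicates 1 and 2, values reached by 37.9% and 39.7% of unannotated positions, and at 0.0527 in replicate 3. U2414 had no gap in replicates 1 and 2, at 1.96 and 2.18, and had one in replicate 3 (0.307) and in MiSeq (0.0759 and 0.0539). With flanks of 5 positions in place of 10, replicates 1 and 2 had 0.701 and 0.755. The base beside it, G2415, was at 47.6 and 47.9 in those same replicates 1 and 2.

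**Figure D4:**
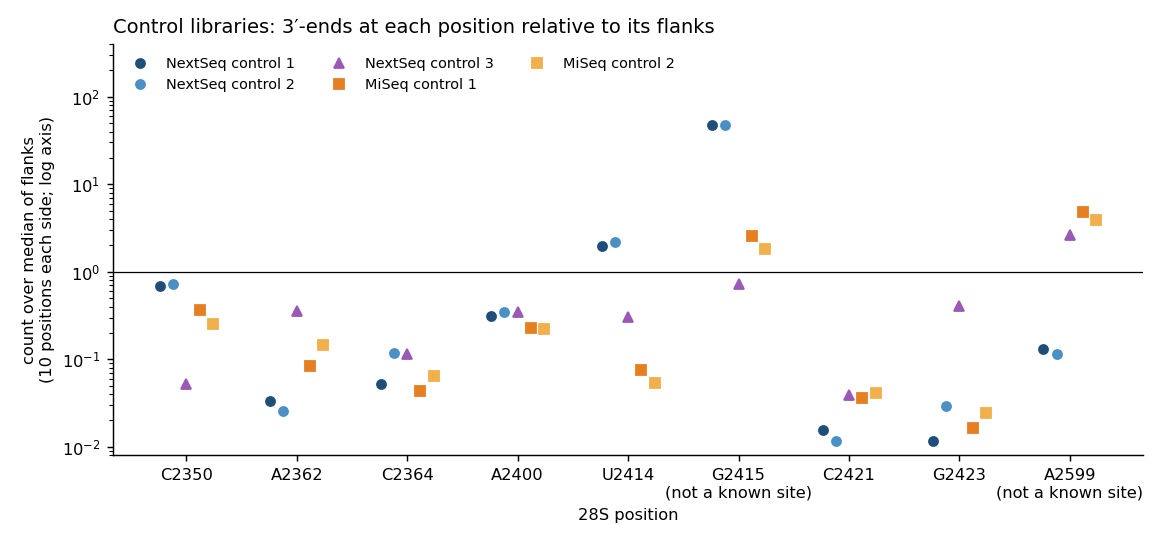
Count over the median of the flanks (log axis) in each of the 5 control libraries at the 7 known sites and at G2415 and A2599. Values under the line at 1 are gaps. C2421 and C2364 stay under 0.12 in all 5 libraries, U2414 is above 1 in NextSeq replicates 1 and 2 only, and G2415 reaches 47.9.

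Positions close to the sites rose in some cases without being called. Of 22 unannotated positions within 2 nt of a known site, 5 were significantly higher in oxidized NextSeq libraries and 1 lower, with log2 fold changes from -7.15 at G2401 to 5.84 at G2363. In MiSeq 5 were higher, 8 lower and 1 was called. Over the whole range 15 positions were higher in NextSeq, 6 of them known sites, where 3.02% of all positions were, and 51 were lower, where 18.8% were. The 9 others lay at 2340, 2346 to 2349, 2351, 2352, 2358 and 2361, with log2 fold changes from 2.66 to 4.40, so that 8 of them were within 10 nt of C2350. They depended on scaling, since library totals alone left 6 positions higher and 303 lower, where 95 and 4332 of all 6718 tested were. That scaling moved the median log2 fold change of all positions from -2.25 to -6.26. Without control replicate 1 or 2, 6 positions were higher and 3 or 7 were lower, where 105 or 108 and 22 or 68 of all were. Without control replicate 3, 36 were higher and 83 lower, where 469 and 1686 of all were. In MiSeq 36 positions were higher, 7 of them known sites, where 10.6% of all positions were, and 199 were lower, where 51.6% were. Without control replicate 1 or 2 of MiSeq, which leaves 1 control library, far fewer positions were lower or higher, in the range and over both rRNAs. No count at all was seen in any oxidized library at 36 positions of the range in NextSeq and at 81 in MiSeq. Such positions were not counted over both rRNAs, so these numbers do not set the range apart.

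The unannotated positions with the highest oxidized signal were next to U2414 in NextSeq and far from any site in MiSeq. In NextSeq they were G2413 (mean 1161 CPM, SD 227), U2412 (707, SD 159), G2415 (380, SD 22.5), U2349 (275, SD 8.45) and G2363 (225, SD 65.3), all within 2 nt of a known site. In MiSeq they were U2435 (1310 CPM, SD 148), U2574 (1091, SD 65.5), A2528 (1074, SD 181), U2523 (1009, SD 93.3) and A2572 (1005, SD 58.6), which lay 12 to 151 nt from the nearest known site. The same 5 positions had means of 11.6 to 40.7 CPM in the NextSeq oxidized libraries.

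The control libraries peaked elsewhere. In NextSeq the highest unannotated positions after G2415 were G2555 (mean 3452 CPM, SD 2881), G2513 (2651, SD 2136), C2464 (2583, SD 2047) and G2554 (2540, SD 2061), and replicate 3 had the low values, with 9402 counts at G2555 where replicates 1 and 2 had 370206 and 414625. In MiSeq they were A2599 (3633 CPM, SD 427), C2602 (2727, SD 275), A2622 (2563, SD 45.9), G2598 (2463, SD 125) and G2601 (2397, SD 258).

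A2599, the second point of comparison, lies 176 nt past the last known site, in the sequence shown here for its base composition, with A2599 in capitals (bases 115937 to 115957 of the contig, plus strand).
A2599: gaucccggagAagccggcggg
It had 173385 and 101224 counts in the MiSeq controls, the highest of all 6939 positions in both, and 358 and 460 after oxidation (log2 fold change -3.43, SE 0.36, edgeR). As for G2415, the choice by control counts enters the fold, so the folds of A2599 are given with no test. In NextSeq its controls were 4250, 4020 and 68562 and its oxidized libraries 452, 414 and 454. In CPM the oxidized libraries (33.2 to 34.1) lay below every control (49.7 to 908). The log2 fold change with TMM scaling was nevertheless positive, though close to its standard error (1.15, SE 1.02, edgeR), and it was -3.33 with library totals alone. Without control replicate 3 it was 2.96. Its direction in NextSeq thus depended on the scaling.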

How the data were processed

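For each of 10 libraries of PA1 total RNA (source per the labels), the authors deposited counts of sense alignments per 3′-end position of 18S and 28S, without normalization. Per the study's methods, they trimmed reads with cutadapt 1.12, collapsed duplicates by a 6-base randomer, aligned with TopHat2 2.1.1 to 2 copies of the rRNAs in hg19, and used SAMtools 0.1.19, BEDtools and DESeq2. Their tables of DESeq2 comparisons (fold changes and p-values) were not used.

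Low counts gathered at 50 or just above: in oxidized NextSeq libraries, 50 to 53 positions of the range held exactly 50 counts, 31 to 34 held 51 to 60 and 0 held 40 to 49. A count is thus not 1 independent molecule, so the floor for a count of 0 was 3 steps of 50, which covers counting error only.

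Counts were tested with edgeR 4.0.16 in R 4.3.3 (quasi-likelihood test, TMM scaling, Benjamini-Hochberg adjustment across 18S and 28S, leaving out positions at 0 in every library of an experiment), separately for NextSeq (3 against 3) and MiSeq (2 against 2), and for the interaction over all 10 libraries. The standard error is the log2 fold change over the root of the F statistic. The procedure was first run on simulated data, and no outcome of that run is given here. That run therefore does not show how the procedure performs on the counts of these libraries. Single values used exact permutation tests. CPM is the count over the library total, times 1000000.

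Known sites came from the study's supplementary list (positions and guide names), and guide elements from the longest pairing with annotated snoRNAs or, for SNORD76, with GAS5. The positions named were all known sites, G2415 and A2599, positions near a known site by counts, other called positions, and the 5 highest unannotated positions per group. The members and lists were chosen with earlier results of these data known. Alternatives were DESeq2 1.42.0, edgeR's likelihood ratio test, RLE, TMMwsp and library totals, filters of at least 10 counts, filterByExpr and none, the replicate block, passage, other thresholds, flanks of 5 and 20 positions, and leaving out each library. Counts divided by 50 and the averaging of NextSeq oxidized replicates 2 and 3 were added after seeing the data.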

Additional observations from a re-analysis of the deposited data

Results flagged for a closer look

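The fold of oxidized over control differed between the experiments at C2421 by the interaction test in edgeR (Benjamini-Hochberg adjusted over all positions). The interaction was -2.96 (SE 0.60, adjusted p = 0.0227), with a positive log2 fold change in both experiments (13.50 in NextSeq and 10.13 in MiSeq), and with scaling by library totals alone it was 0.51 (adjusted p = 0.834). G2598, G2601 and C2602 also passed the same threshold. They were named for their high counts in the MiSeq controls, which enter the interaction, so their values are given as a description with no test. At G2598 the interaction was -5.05, and -1.36 with library totals alone, and the MiSeq libraries held 112413 and 72157 counts in controls and 52 and 102 after oxidation. At G2601 it was -16.54, a fitted value that depends on the prior count, since both MiSeq oxidized libraries held 0 counts. From a floor of 150 counts per library (3 steps of 50), G2601 was at least 21.6-fold lower in the oxidized than in the control MiSeq libraries. At C2602 it was -8.33, with 4 and 0 counts in the MiSeq oxidized libraries and 128709 and 76975 in the controls.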

How the results depend on the processing

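The 6 known sites called in NextSeq and the 4 called in MiSeq (edgeR's quasi-likelihood test, Benjamini-Hochberg adjusted) stayed within 1.5 times of these counts under 20 of 22 and 15 of 18 alternatives. With a quasi-likelihood adjusted p under 0.0001, 0 known sites and 0 others were called in either experiment. The smallest over both rRNAs was 4.00e-04 in NextSeq and 0.00555 in MiSeq. DESeq2, the study's test, gave NextSeq adjusted p of 9.17e-23 at C2350, 2.98e-77 at C2364, 2.26e-26 at A2400 and 7.14e-171 at C2421. It gave none at A2362. With no fold threshold, 7 known sites and 29 others passed in MiSeq, and 9 others in NextSeq. Scaling by library totals alone left 3 known sites called in NextSeq and 0 known sites with an interaction, turned the NextSeq log2 fold changes of A2362 (-0.75) and A2599 (-3.33), and turned the interaction at C2350 (0.36), C2364 (1.39) and C2421 (0.51). Without control replicate 3 of NextSeq, 4 known sites had an interaction, and the values of A2362 (-1.71) and G2423 (-1.43) changed sign. DESeq2 and the likelihood ratio test each called 2 unannotated positions in MiSeq. Passage as a covariate called 1 in NextSeq.

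Positions of the range lower after oxidation in NextSeq numbered 51 in the reported fit, where 1262 of all 6718 tested were. They numbered 117 with DESeq2, 98 with the likelihood ratio test and 303 with library totals, where 2221, 2320 and 4332 of all were. With counts divided by 50, and with oxidized replicates 2 and 3 averaged, 0 were lower, where 2 and 0 of all were. Leaving out each library in turn gave 3 to 83 lower positions in NextSeq and 13 to 285 in MiSeq, with 0 to 1 unannotated positions called in NextSeq (G2363) and 1 to 2 in MiSeq. Counting positions within 1 nt as well raised the share of the range's counts at known sites to 98.4% (oxidized NextSeq), 9.90% (control NextSeq), 62.4% (oxidized MiSeq) and 3.49% (control MiSeq). The causes were not tested, except that leaving out a library leaves fewer samples.

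Libraries with the same replicate number did not deviate together (correlations of 0.0278, -0.0162 and 0.00828 in NextSeq and -0.0128 in MiSeq), and replicates 1 and 2 share a passage in both NextSeq groups as replicates 3 do, so the numbers were not taken to pair the libraries. With the replicate block, 6 known sites and 1 other position were called in NextSeq. There 9 positions of the range were lower, where 64 of all 6718 tested were. In MiSeq the block left 0 known sites and 0 others called and 0 lower. Depth limits mainly the oxidized MiSeq libraries, and the counts gathered at 50 limit every low value.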

Other observations

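Between A2362/C2364 and A2400, the MiSeq controls held a run of 24 positions, 2369 to 2392, with fewer than 1000 counts each in both libraries, where the next longest such run of the range had 3 positions. The run was chosen by its low MiSeq control counts after these were seen, so its low MiSeq values follow from that choice. Its median count was 105 and 104, against 17709.5 and 12330.5 over the whole range. In the NextSeq controls the same positions had medians of 4540, 4597 and 10257. They held 0.0563% and 0.0767% of the range's counts in the MiSeq controls and 2.18%, 2.23% and 2.84% in the NextSeq controls. Because of the choice, these shares do not test a difference between the experiments. No known site lies in the run.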
